A study of Arabidopsis thaliana with 14 samples.

Results

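The levels of 6 transcription factor genes that act in plant patterning were compared between the compartments of the developing Arabidopsis seed. They were YAB3 (AT4G00180), YAB5 (AT2G26580), PHV (AT1G30490), BBM (AT5G17430), LHW (AT2G27230) and JKD (AT5G03150). They are patterning regulators whose probe set names 1 gene, out of 13356 genes named alone on the array, and were picked with earlier results of these data known. The name "embryo patterning" did not describe the levels of all of them. YAB3, YAB5 and BBM had their highest mean in the embryo proper, and JKD passed no test. For BBM the embryo proper did not differ by the test from the micropylar or the cellularized endosperm. YAB5 entered the test only through its embryo arrays. PHV had its highest mean in the cellularized endosperm, which did not differ from the embryo proper by the test. LHW did not differ by the test between the chalazal seed coat and the embryo proper.

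The material of all groups was Arabidopsis thaliana of genotype Ws-0, with no mutation or treatment named in the labels, at the linear-cotyledon stage. Embryos were 175 ± 11 µm long, in siliques of 1.6 to 1.9 cm from plants aged 38 to 46 days. The 7 groups of 2 biological replicates gave 14 Affymetrix ATH1 arrays. Each compartment was cut by laser from paraffin sections: the embryo proper, the micropylar, cellularized and chalazal endosperm, the chalazal seed coat and the general seed coat. Whole seeds, the seventh group, were taken from sections in the same way and hold all of these tissues. The micropylar endosperm arrays carry a description of whole seeds, against their titles and sources, which were followed. Which plants or seeds a replicate came from is not given, and p-values cover no more than the spread between the samples at hand.

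As background, the embryo at this stage has a shoot pole with 2 growing cotyledons, a root pole and a core of vascular precursors, and its axes are set by families of transcription factors. YAB3 and YAB5 belong to the YABBY family, which acts on the lower (abaxial) side of leaves and leaf-like organs and in the outgrowth of the blade. PHV (PHAVOLUTA) is a class III homeodomain leucine zipper factor that gives the upper (adaxial) side its identity and is held back by microRNA165 and microRNA166. BBM (BABY BOOM) is an AP2 family factor of embryo and root stem cells, and its forced expression can start embryos from vegetative tissue. LHW (LONESOME HIGHWAY) is a basic helix-loop-helix factor that pairs with TMO5 to drive the divisions that widen the vascular strand. JKD (JACKDAW) is a zinc finger protein of the root ground tissue that restrains the movement of SHORT-ROOT. The endosperm nourishes the embryo, and maternal tissue forms the seed coat. The chalazal pole lies where the vascular strand of the mother plant ends.

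Levels are array signal intensities on a linear scale, scaled by the authors so that each array has the same trimmed mean of 500. Array medians ran from 106.6 to 183.1, and the Pearson r between the 2 arrays of a group, over probe sets, was 0.851 to 0.914. The table used holds no detection calls, so a low value was not called absent. Levels are compared within 1 probe set only, and the number of arrays limits their precision. Changes are differences of mean log2(intensity + 16), which understates the change of low values. A change was called at an adjusted p below 0.05 and at least 2-fold, from limma with Benjamini-Hochberg adjustment over all 15951 probe sets tested. In bulk tissue such as this, fewer cells of a type and less RNA per cell cannot be told apart.

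Values from the whole series bear on the results. The ratio of 3' to 5' signal of GAPDH, a sign of RNA length, was 13.6 and 8.34 in the chalazal endosperm, 7.35 and 7.87 in the embryo proper, 3.17 and 2.72 in whole seeds, and 3.59 to 7.73 in the other groups. The summed signal of the 6 endosperm markers named on the array, of 13 listed, was 9472 to 13781 in the cellularized and 4546 to 6369 in the micropylar endosperm, 707 to 857 in the embryo proper, and 511 to 516 in the chalazal endosperm, 2045 to 2460 in the chalazal and 833.2 to 837.2 in the general seed coat. SWEET11, a sugar transporter, made up most of it in the cellularized endosperm (9126 and 13294) and was 9.18 and 140.6 in the chalazal endosperm. MPC, also one of the 6, was 125.6 and 145.7 in the chalazal endosperm and at most 38.9 elsewhere. AGL80 was 22.2 and 20.5 in the cellularized endosperm, 119.0 and 46.5 in the chalazal endosperm, and 142.6 and 187.5 in the general seed coat. IKU1 was 487.7 and 1304 in the chalazal seed coat and 143.5 to 383.5 in the endosperm parts. AGL62 and IKU2 reached at most 59.5 and 99.8 on any array. The summed signal of the 4 seed coat markers, of 16 listed, was 15967 to 19392 in the chalazal and 7436 to 8449 in the general seed coat. It was 1253 to 1324 in the chalazal, 834.5 to 943.5 in the micropylar and 158 to 271 in the cellularized endosperm, and 186 to 195 in the embryo proper. DFR led it in the seed coat. In the embryo proper most of it was CYP78A9 (148.5 and 164.5), which read 11.1 and 161.2 in the general seed coat. None of 12 listed embryo markers is named alone in the annotation used, so the embryo label was not checked by markers. The 6 genes under study were picked with earlier results known and are no check of it.

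**Figure D1:**
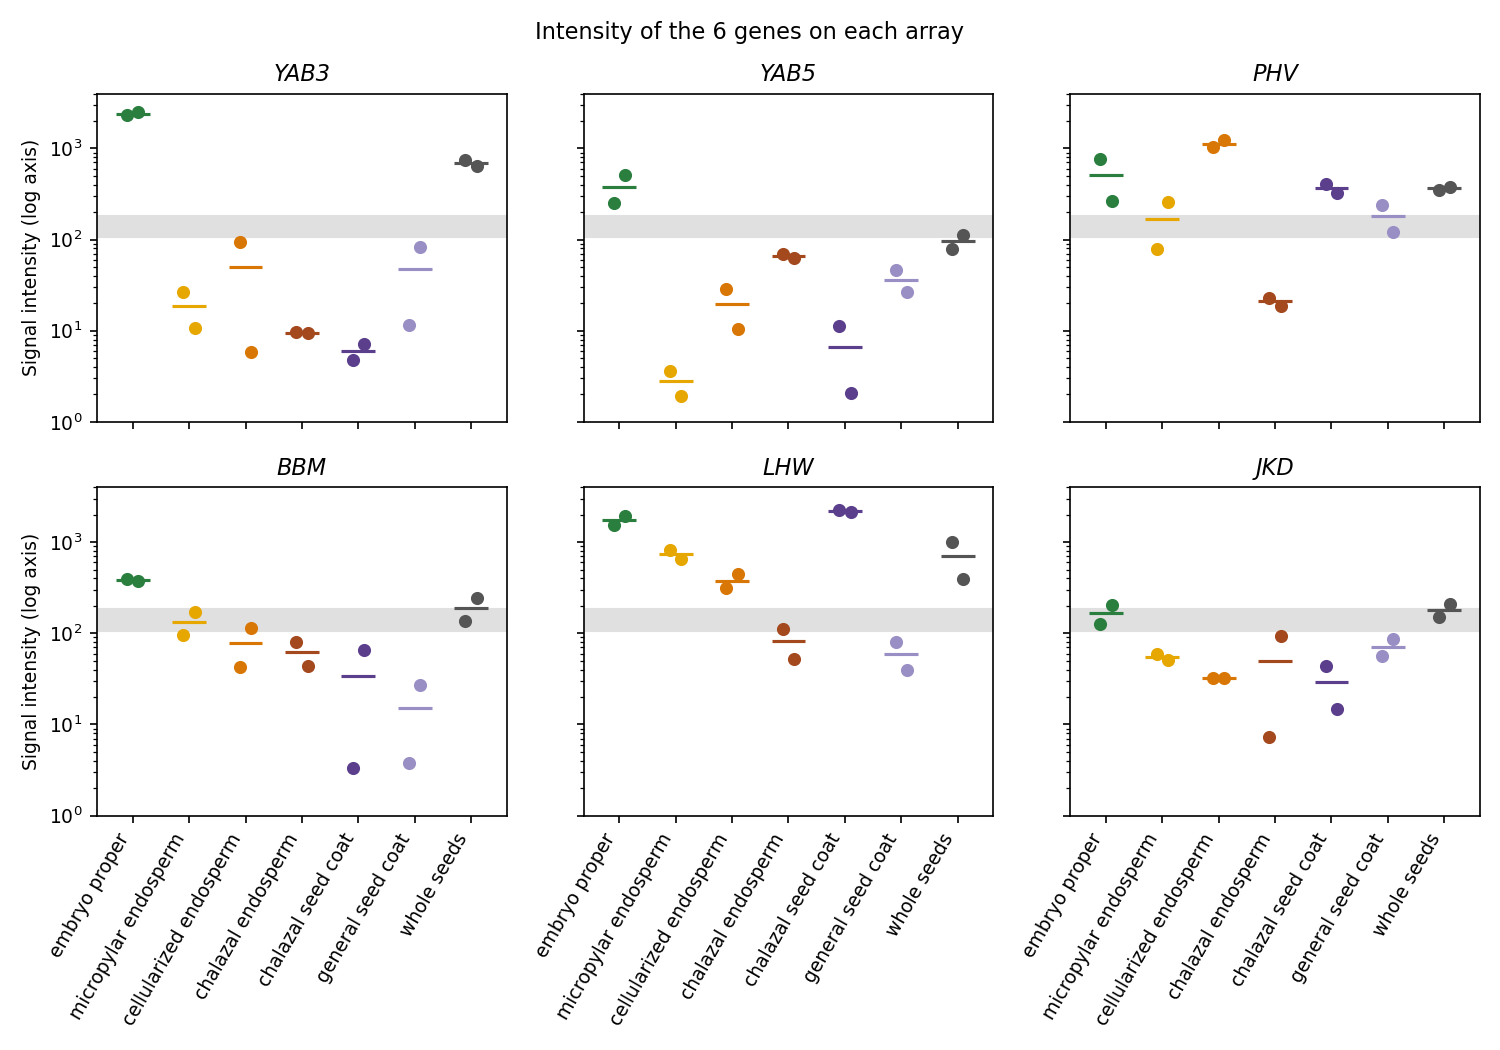
Signal intensity (log axis) of the 6 genes in the 7 groups. Each dot is 1 array, each bar the mean of 2 arrays, and the grey band is the range of the 14 array medians. By mean, YAB3, YAB5 and BBM are highest in the embryo proper, PHV in the cellularized endosperm and LHW in the chalazal seed coat. For BBM, PHV and LHW that compartment did not differ by the test from the next highest compartment.

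YAB3 was far higher in the embryo proper than in any other compartment. Its intensity was 2331 and 2486 on the embryo arrays, which put it at or above 93.1% and 93.7% of the probe sets there. It was 26.8 and 10.6 in the micropylar endosperm, 93.5 and 5.87 in the cellularized endosperm, and 9.70 and 9.32 in the chalazal endosperm. The seed coats read 4.74 and 7.23 at the chalaza and 11.5 and 83.2 elsewhere. Whole seeds lay between, at 744.7 and 643.7, and no array of another compartment came near the embryo or whole-seed arrays. The embryo proper was called higher than each of the other 5 compartments, by 5.54 (general seed coat, SE 0.82, adjusted p = 7.19e-05) to 6.79 (chalazal seed coat, SE 0.82, adjusted p = 5.12e-06) on the log2 scale.

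For YAB3 whole seeds exceeded the mean of the 6 compartments by 3.34 (SE 0.63, adjusted p = 0.00207). That mean is taken over log2 values, so a mixture of the tissues tends to exceed it for a gene high in a single compartment. The call is therefore no support for more YAB3 in whole seeds than in their parts. Below whole seeds the next group was the general seed coat, lower by 3.76 (SE 0.82, adjusted p = 0.0123), a call that ended without either whole-seed array (0.0753 and 0.087), without general seed coat replicate 1 (0.105) or with a pseudocount of 1 (0.0621). Below that no neighbouring pair was called. Of the 14 arrays, 7 lay below 16, so differences among the low groups depend on the constant added before the logarithm. YAB3 was called lower in the chalazal endosperm (-1.75, SE 0.64, adjusted p = 0.0352) and the chalazal seed coat (-2.01, SE 0.64, adjusted p = 0.0241) than in the mean of the other 5, in which the embryo counts. Their arrays overlapped those of other compartments, and both calls ended without either array of the compartment itself (adjusted p = 0.151 and 0.152, and 0.133 and 0.11). The former also ended without either embryo array (adjusted p = 0.0559 and 0.0586) or micropylar replicate 1 (0.0536), with a pseudocount of 1 (0.0902) and with no filter (0.051).

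YAB5, the second YABBY gene, was also highest in the embryo proper, with 254.3 and 506.3. It was 3.64 and 1.93 in the micropylar, 28.6 and 10.3 in the cellularized and 68.8 and 62.6 in the chalazal endosperm. In the seed coat it was 11.3 and 2.08 at the chalaza and 46.0 and 26.9 elsewhere, and in whole seeds 78.9 and 112.5. Both embryo arrays lay above all 12 others. YAB5 entered the test only through the embryo, where its 2 arrays were the only ones at or above their array median, so a difference of the embryo from the rest was built into its passing.

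The embryo proper exceeded each of the other 5 compartments for YAB5 too, by 2.20 (chalazal endosperm, SE 0.75, adjusted p = 0.0256) to 4.32 (micropylar endosperm, SE 0.75, adjusted p = 0.000714). The first call ended without either chalazal endosperm array (adjusted p = 0.0935 and 0.109) or with a pseudocount of 1 (0.126), and that against the general seed coat (2.87, SE 0.75, adjusted p = 0.00804) without general seed coat replicate 2 (0.0577) or with a pseudocount of 1 (0.0551). Between endosperm parts the micropylar was below the chalazal endosperm (-2.12, SE 0.75, adjusted p = 0.0334), a call that ended without any 1 of these 4 arrays, with adjusted p from 0.102 to 0.131, or with a pseudocount of 64 (0.0904). The micropylar endosperm was lower than the mean of the other 5 (-1.80, SE 0.58, adjusted p = 0.0358), which ended without either micropylar array (0.195 and 0.203), either chalazal endosperm array (0.0563 and 0.053) or cellularized endosperm replicate 1 (0.0544), with a pseudocount of 64 (0.0573) and with the chalazal endosperm left out (0.0837). No neighbouring pair of groups in the order of YAB5 levels was called.

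PHV, the adaxial factor, had its highest mean in the cellularized endosperm and the next in the embryo proper. These 2 did not differ by the test. The intensity of PHV was 1023 and 1228 in the cellularized endosperm, above all 12 other arrays. The embryo arrays differed widely from each other, at 756.5 and 266.6. Whole seeds read 353.5 and 376.7, the chalazal seed coat 406.8 and 324.1, the general seed coat 241.0 and 120.7, and the micropylar endosperm 79.0 and 259.2. In the chalazal endosperm PHV was 23.1 and 18.8, below every other array. PHV was at or above the array median on 10 of 14 arrays.

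For PHV the cellularized endosperm exceeded the mean of the other 5 compartments by 2.65 (SE 0.50, adjusted p = 0.0011). In pairs it was called above the chalazal endosperm by 4.95 (SE 0.64, adjusted p = 1.06e-05), the micropylar endosperm by 2.81 (SE 0.64, adjusted p = 0.0131) and the general seed coat by 2.60 (SE 0.64, adjusted p = 0.00746). The micropylar call ended without either cellularized endosperm array (0.0643 and 0.092) or micropylar replicate 1 (0.188), and the general seed coat call without cellularized endosperm replicate 2 (0.0558) or general seed coat replicate 2 (0.0851). Against the chalazal seed coat the difference of 1.58 (SE 0.64, adjusted p = 0.0736) was not called. The embryo proper was 1.28 below the cellularized endosperm, with a 95% interval of that difference from 0.07 above to 2.63 below (adjusted p = 0.199). The embryo proper against the mean of the other 5 gave 1.11 (SE 0.50, adjusted p = 0.1), and only the pair with the chalazal endosperm was called, 3.66 higher in the embryo (SE 0.64, adjusted p = 0.000196). The chalazal endosperm was lower than the mean of the other 5 (-3.29, SE 0.50, adjusted p = 4.16e-05). The step from the micropylar to the chalazal endosperm, 2.13 (SE 0.64, adjusted p = 0.0139), was the only called pair of neighbours in its order of levels, and ended without micropylar replicate 2 (0.19) or chalazal endosperm replicate 2 (0.0564).

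BBM was highest in the embryo proper, with 392.8 and 376.7. It was 95.8 and 171.1 in the micropylar, 43.0 and 114.2 in the cellularized and 81.1 and 44.0 in the chalazal endosperm. Chalazal seed coat arrays read 3.35 and 64.8, general seed coat arrays 3.80 and 26.8, and whole seeds 136.3 and 245.0. Both embryo arrays exceeded all 12 others, and the 2 seed coat parts overlapped each other. The embryo proper exceeded the mean of the other 5 by 2.64 (SE 0.62, adjusted p = 0.00368), but without embryo replicate 1 or 2 the adjusted p was 0.0609 or 0.0536. By pairs it was called above the general seed coat (3.78, SE 0.81, adjusted p = 0.00181), the chalazal seed coat (3.34, SE 0.81, adjusted p = 0.0035) and the chalazal endosperm (2.39, SE 0.81, adjusted p = 0.0241).

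For BBM the differences from the cellularized endosperm (2.19, SE 0.81, adjusted p = 0.0741) and the micropylar endosperm (1.47, SE 0.81, adjusted p = 0.251) were not called. The 95% interval for the latter ran from -0.22 to 3.16. The chalazal seed coat call ended without chalazal seed coat replicate 1 (adjusted p = 0.0592). The chalazal endosperm call ended without either embryo array (0.102 and 0.0934), without chalazal endosperm replicate 2 (0.132) or with a pseudocount of 1 (0.106). The general seed coat was lower than the mean of the other 5 (-1.90, SE 0.62, adjusted p = 0.0419), a call lost in 10 of 24 alternatives. Among them were those without either general seed coat array (0.338 and 0.0813), either embryo array (0.0673 and 0.0655), cellularized endosperm replicate 2 (0.0642), chalazal endosperm replicate 1 (0.0598) and micropylar replicate 2 (0.068). No neighbouring pair of groups was called in the order of BBM levels.

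LHW, the vascular factor, was high in 2 tissues, the chalazal seed coat (2237 and 2140) and the embryo proper (1559 and 1935). It was 810.8 and 659.6 in the micropylar, 310.5 and 445.0 in the cellularized and 111.2 and 52.7 in the chalazal endosperm. The general seed coat read 80.4 and 39.2, and whole seeds 1003 and 394.7. The 2 chalazal seed coat arrays lay above all 12 others, the embryo arrays above all 10 that remained, and the chalazal endosperm and general seed coat arrays overlapped at the bottom. LHW was at or above the array median on 11 of 14 arrays. The embryo proper was 0.33 below the chalazal seed coat (adjusted p = 0.671), with a 95% interval from -1.45 to 0.79.

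Both of these tissues were called above the mean of the other 5 for LHW, the chalazal seed coat by 2.77 (SE 0.41, adjusted p = 6.27e-05) and the embryo proper by 2.38 (SE 0.41, adjusted p = 0.000299). In the seed coat the chalazal part exceeded the general part by 4.92 (SE 0.53, adjusted p = 1.02e-05). The embryo proper exceeded the general seed coat by 4.59 (SE 0.53, adjusted p = 5.82e-06), the chalazal endosperm by 4.23 (SE 0.53, adjusted p = 7.08e-06) and the cellularized endosperm by 2.18 (SE 0.53, adjusted p = 0.00952). The last call ended without embryo replicate 2 (adjusted p = 0.0892) or cellularized endosperm replicate 1 (0.0762). Against the micropylar endosperm the difference of 1.23 (SE 0.53, adjusted p = 0.136) was not called. The chalazal endosperm and the general seed coat were lower than the mean of the other 5, at -2.70 (SE 0.41, adjusted p = 4.87e-05) for the former and -3.13 (SE 0.41, adjusted p = 2.84e-05) for the latter. Between neighbours in the order, the cellularized endosperm exceeded the chalazal endosperm by 2.05 (SE 0.53, adjusted p = 0.00633), which was lost without cellularized endosperm replicate 2 (0.055) or chalazal endosperm replicate 2 (0.0681).

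JKD passed no test, with 126.9 and 206.4 in the embryo proper and 152.3 and 211.3 in whole seeds. It was 59.5 and 50.6 in the micropylar, 32.7 and 32.0 in the cellularized and 7.31 and 92.4 in the chalazal endosperm. The chalazal seed coat read 44.1 and 14.7, and the general seed coat 56.9 and 86.0. Both embryo arrays lay above the 10 arrays of the other compartments, yet no comparison, pairs included, passed the threshold. The embryo proper against the mean of the other 5 gave 1.63 (SE 0.62, adjusted p = 0.0529), and 6 of 20 alternatives brought it under 0.05, to between 0.0229 and 0.0492. The nearest pair was the embryo proper against the chalazal seed coat, at 2.05 (SE 0.80, adjusted p = 0.0533). Only 1 embryo and 1 whole-seed array were at or above the array median, which is the least that let JKD enter the test.

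**Figure D2:**
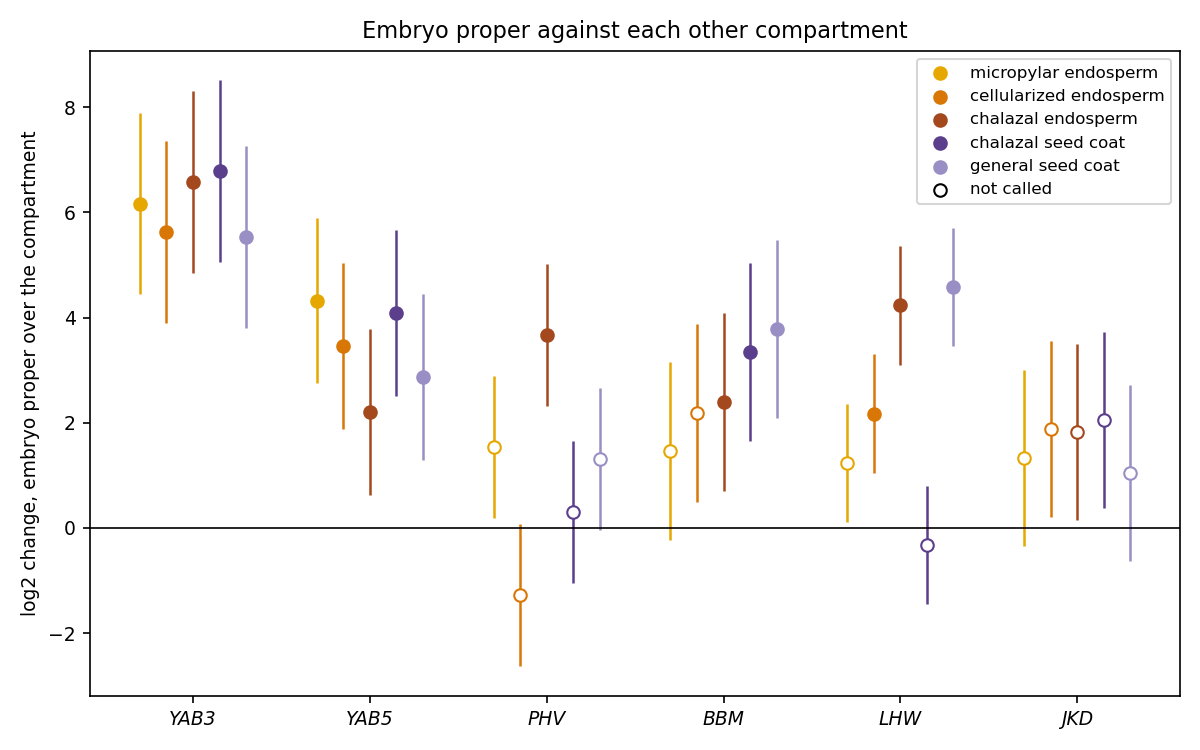
Difference in mean log2(intensity + 16) between the embryo proper and each of the other 5 compartments for the 6 genes, with 95% intervals. Filled points were called and open points were not. All 5 differences were called for YAB3 and YAB5, and none for JKD. YAB5 entered the test only through its 2 embryo arrays, so its calls are no support for an embryo difference.

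The share of all tested probe sets called gives the scale for these counts. In the embryo proper against the mean of the other 5 compartments 4 of the 6 genes were called (YAB3, YAB5, BBM and LHW, all higher), where 28.4% of all probe sets were called in either direction. YAB5 could be tested only because of its embryo arrays, as said above, so its place in this count and in the embryo pairs is no support for an embryo difference. YAB3 entered the test through embryo and whole-seed arrays only, and whole seeds hold the embryo, so its place was not free of the filter either. In the micropylar endosperm 1 was called (of all probe sets 18.0%), in the cellularized endosperm 1 (16.5%), in the chalazal endosperm 3 with LHW, PHV and YAB3 lower (38.7%), in the chalazal seed coat 2 (26.2%) and in the general seed coat 2 (16%). These 6 comparisons share group means, so a high embryo level lowers the change of every other compartment, and they were not read as separate evidence. By pairs, the embryo proper differed in 2 genes from the micropylar endosperm (15.3%), in 3 from the cellularized endosperm (15.3%), in 5 from the chalazal endosperm (39.5%), in 3 from the chalazal seed coat (34.1%) and in 4 from the general seed coat (27.5%). JKD was the gene that did not differ from the chalazal endosperm by the test.

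Among the remaining compartments the calls were of PHV and LHW, with 1 of YAB5. The cellularized endosperm differed from the micropylar endosperm in PHV (6.57% of all probe sets called), from the chalazal endosperm in PHV and LHW (32.1%), from the chalazal seed coat in LHW (28.3%) and from the general seed coat in PHV and LHW (18.9%). The micropylar endosperm differed from the chalazal endosperm in YAB5, PHV and LHW (36.3%), from the chalazal seed coat in LHW (28.9%) and from the general seed coat in LHW (18.2%). The chalazal endosperm differed from the chalazal seed coat in PHV and LHW (29.7%) and from the general seed coat in PHV (34.8%), and the 2 seed coat parts differed in LHW (14.6%). Of these calls not described above, LHW between the micropylar endosperm and the chalazal seed coat (-1.56, SE 0.53, adjusted p = 0.0349) ended without any 1 of the 4 arrays (0.0954 to 0.159) or with a pseudocount of 1 (0.0541). PHV between the chalazal endosperm and the general seed coat (-2.35, SE 0.64, adjusted p = 0.0083) ended without general seed coat replicate 1 (0.0814). Over all 6 genes, 36 pairs of groups were neighbours in the order of levels. Of these, 3 were called, and in 21 the arrays overlapped.

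Whole seeds, in which all compartments are mixed, had a mean between those of the embryo proper and of every other compartment for YAB3, YAB5 and BBM. None of the 6 genes was called between the embryo proper and whole seeds by limma, where 14.3% of all probe sets were called. At an unadjusted p below 0.05 there were 3 of the 6, where 28.6% of all probe sets passed: YAB3 (1.77 higher in the embryo, SE 0.82, adjusted p = 0.163), YAB5 (1.77, SE 0.75, adjusted p = 0.125) and LHW (1.44, SE 0.53, adjusted p = 0.0804). Against the mean of the 6 compartments YAB3 alone was called (9.74% of all probe sets). By pairs, whole seeds differed in 2 genes from the micropylar endosperm (YAB3 and YAB5, 7.82%), in 1 from the cellularized endosperm (YAB3, 14.5%), in 3 from the chalazal endosperm (YAB3, PHV and LHW, 38.1%), in 4 from the chalazal seed coat (YAB3, YAB5, BBM and LHW, 22.8%) and in 3 from the general seed coat (YAB3, BBM and LHW, 5.79%). LHW was the only one of the 4 in the chalazal seed coat that was higher there than in whole seeds, by 1.77 (SE 0.53, adjusted p = 0.0227), a call that ended without whole-seed replicate 2 (0.267) or either chalazal seed coat array (0.084 and 0.0778). Calls of YAB5 and BBM against whole seeds were close to the threshold. For BBM the general seed coat call (-2.78, SE 0.81, adjusted p = 0.0495) was lost in 18 of 23 alternatives and the chalazal seed coat call (-2.33, SE 0.81, adjusted p = 0.0437) in 11 of 23, with adjusted p up to 0.292 and 0.337. For YAB5 the micropylar call (-2.56, SE 0.75, adjusted p = 0.0435) was lost in 12 of 20 and the chalazal seed coat call (-2.31, SE 0.75, adjusted p = 0.0327) in 7 of 20, among them those without either whole-seed array. The YAB3 call against the cellularized endosperm (-3.86, SE 0.82, adjusted p = 0.00372) ended without cellularized endosperm replicate 2 (0.0711). The scaling bears on whole-seed comparisons: with arrays set to equal medians, the median change of all probe sets against the mean of the compartments moved from 0.22 to -0.18, and the share of calls that were higher from 71.3% to 32.2%. YAB3 remained called in that comparison under each of 23 alternatives. All of them set a mixture against a mean of log2 values, as said above.

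The chalazal part differed from the rest of its tissue in opposite directions for LHW, and for PHV in the endosperm but not by the test in the seed coat. The change from the cellularized to the chalazal endosperm was set against the change from the general to the chalazal seed coat. For LHW the chalazal endosperm was lower than the cellularized by 2.05, and the chalazal seed coat higher than the general by 4.92. The difference between the 2 changes was -6.97 (SE 0.76, adjusted p = 9.34e-06). For PHV the chalazal endosperm was lower by 4.95, while the chalazal seed coat gave 1.02 more than the general seed coat (SE 0.64, adjusted p = 0.332). The difference was -5.96 (SE 0.91, adjusted p = 0.000225). These 2 of the 6 genes were called, against 17.6% of all probe sets, and both calls held in all 23 alternatives. The comparison was chosen after the values had been seen. The chalazal endosperm arrays also had the highest GAPDH ratios and the lowest summed endosperm markers. That sum was led by SWEET11, and MPC and AGL80 ran against it, as given above. The part of these in the result was not tested.

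**Figure D3:**
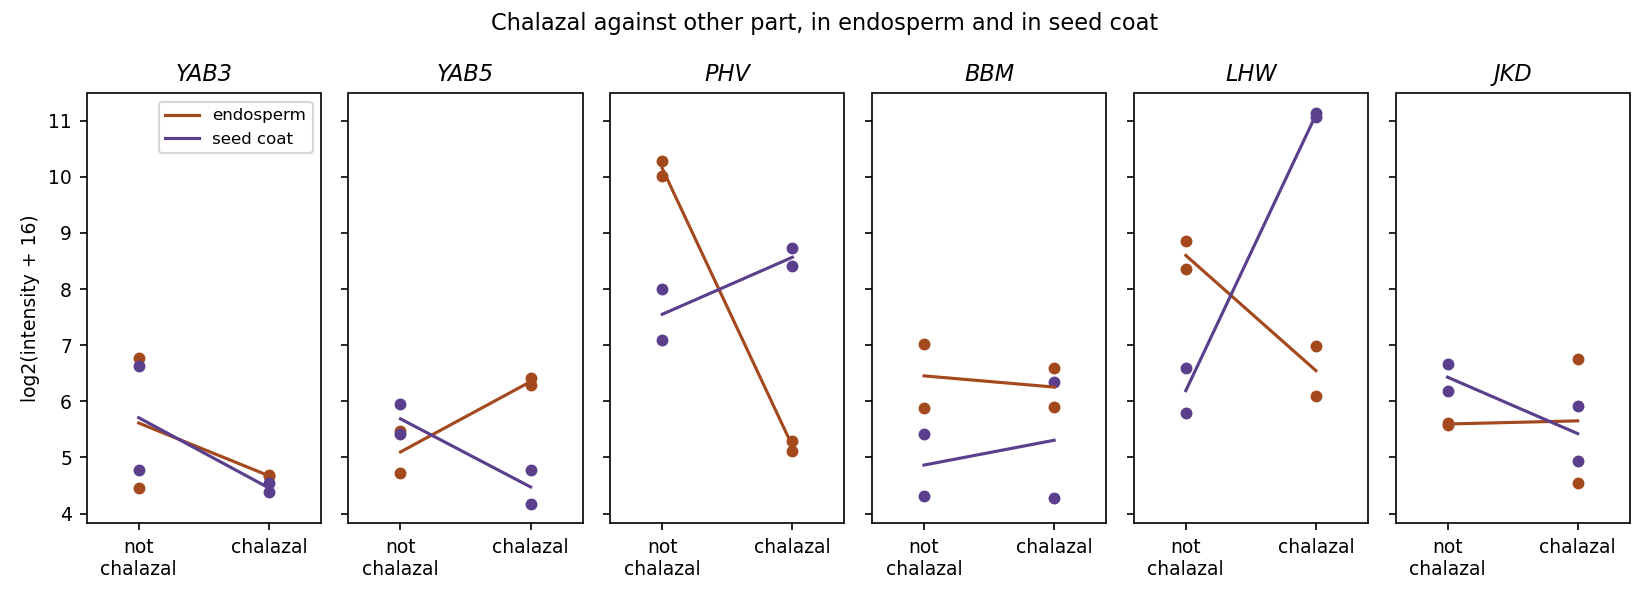
Level as log2(intensity + 16) of the 6 genes in the part that is not chalazal (cellularized endosperm or general seed coat) and in the chalazal part of the endosperm and the seed coat. Dots are single arrays and lines join the means of 2 arrays. For LHW the endosperm mean goes from 8.60 to 6.55 and the seed coat mean from 6.19 to 11.11, and the lines cross.

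Across the 14 arrays the genes fell into looser and tighter pairs, described here without a test because arrays of 1 compartment are not independent of each other. Among YAB3, YAB5, BBM and JKD the 6 Pearson correlations of log2 values ran from 0.47 (BBM and JKD) to 0.83 (YAB3 and YAB5). The 9 pairs with PHV or LHW ran from -0.003 (YAB5 and PHV) to 0.52 (PHV and LHW). Without the 2 embryo arrays, over 12 arrays, YAB3 and YAB5 gave 0.61, YAB3 and JKD 0.74, YAB5 and BBM 0.10, and YAB5 and LHW -0.50. For YAB5 and BBM the value over all 14 arrays was 0.52. Each pair of the genes gave a lower value without the embryo arrays, as YAB3 and BBM did (0.70 with them and 0.45 without).

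**Figure D4:**
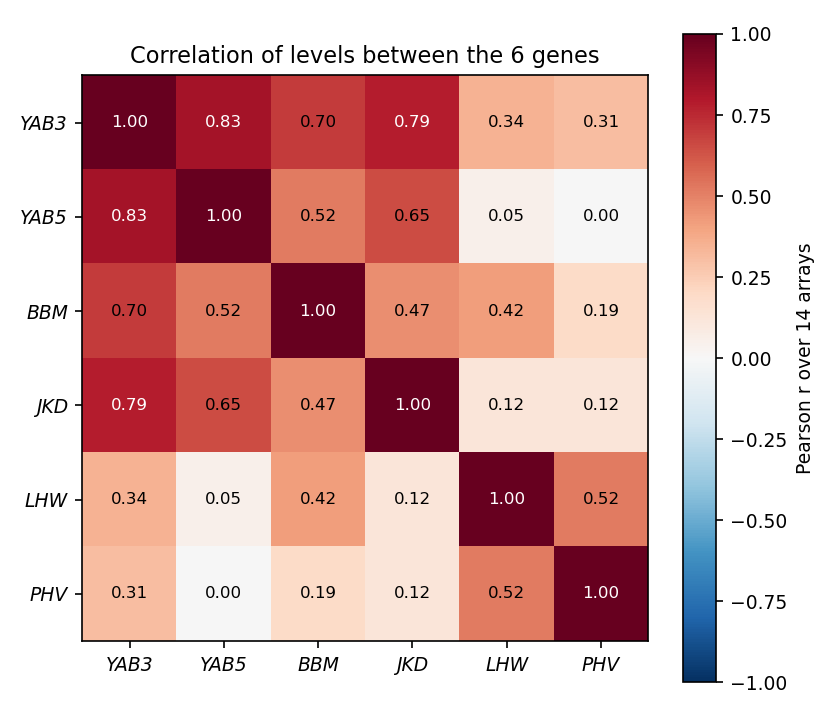
Pearson correlation of log2(intensity + 16) over 14 arrays for the 15 pairs of the 6 genes. The colour gives r from low to high. The pair of YABBY genes has the highest value, 0.83, and the pairs with PHV or LHW do not pass 0.52.

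Among 1173 tested probe sets that name 1 gene with a symbol, the most similar pattern over 14 arrays was found for each gene. For YAB3 these were scpl25 (r = 0.90), EXPB3 (0.88) and ATMYC1 (0.86), and for YAB5 PGY1 (0.83), ATMYC1 (0.82) and JAG (0.80). JAG (JAGGED) is a zinc finger regulator of lateral organ growth, EXPB3 an expansin of the cell wall and PGY1 a ribosomal protein gene. For BBM they were DI21 (0.87), NRPB9B (0.86), a subunit of RNA polymerase II, and SAMTL (0.84), and for JKD scpl25 (0.91), CLE27 (0.86), which encodes a signalling peptide of the CLE family, and ENGase85B (0.85). These genes were highest in the embryo proper, except ENGase85B, which was highest in whole seeds.

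PHV was most like CKS (0.88), THE1 (0.85), a receptor kinase that senses the cell wall, and MTP11 (0.84), a manganese transporter, all 3 highest in the cellularized endosperm. THE1 averaged 2102 there and 619.1 in the embryo proper. For LHW the nearest were TBL39 (0.87), THX (0.81), a thioredoxin, and NRPE7 (0.80), a subunit of RNA polymerase V, each highest in the embryo proper and not in the chalazal seed coat. A likeness over 14 arrays of 7 groups is a description of level only.

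Other listed genes of the same families and pathways numbered 78, covering YABBY, class III HD-ZIP, KANADI, AP2, LHW partner, ground tissue, shoot and root pole regulators. The annotation used names 3 of them alone, and none of the 3 passed the filter on low values. It names no gene for 8794 of 22810 probe sets, so genes not named were not shown to be missing from the array. The 78 include AIL1, BIB and BLJ, whose symbols were not matched. Most of these families were therefore not analysed here. INO, a YABBY gene of the outer ovule integument, read 127.7 and 70.9 in the chalazal seed coat and 6.66 and 12.2 in the embryo proper, while the other groups lay between 2.30 and 92.9. CLV3, the peptide gene of shoot stem cells, read 121.1 and 51.7 in the embryo proper and 3.75 to 73.0 on the other arrays. IDD16, of the same zinc finger family as JKD, lay between 2.80 and 82.7 on all 14 arrays.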

How the data were processed

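RNA from laser-cut sections (2 to 5 ng per sample) was amplified, biotin-labelled and read on ATH1 arrays, per the labels' protocols. The deposited values are linear signal intensity per probe set, 1 colour, with GCOS named in the submitters' processing notes and no version given. Each array had been scaled by the authors: with 2% trimmed at each end, the mean over 22810 probe sets was 500, as checked on the intensity values. The genome build is not given in the sources used here, and no positions are printed.

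After 64 control probe sets were left out, 15951 were tested, for which 2 or more arrays reached the array median. Probe sets name 1 gene (13513), several (503) or none (8794) in the platform annotation. Models were fitted with limma 3.58.1 in R 4.3.3 on log2(intensity + 16), with 1 mean per group over 14 arrays (7 residual degrees of freedom) and a variance trend. Called changes were at least 2-fold with a two-sided p, adjusted in each comparison by Benjamini-Hochberg, below 0.05. There were 29 comparisons: each of the 6 compartments against the mean of the other 5, whole seeds against the mean of the 6, all 21 pairs, and 1 difference of differences. The model fit was tested on simulated data, without the filter on low values and without the pseudocount. Replicate numbers were not used to pair samples. Over 21 pairs of groups the deviations correlated from -0.11 to 0.15, and 1 exceeded 0.1. These values showed no strong shared shift, but could not show whether equal numbers share plants or sections.

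The genes, the lists of related genes and markers, and the tests were chosen with earlier results of these data known. Named genes were the 6, the members of their families and pathways named alone on the array, and for each of the 6 the 3 tested probe sets with a symbol and the highest correlation. Alternatives were another pseudocount (1 or 64), no or a stricter filter (at least 4 arrays), equal medians, quantile normalization, no variance trend, a replicate block, groups left out, and each array left out.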

Additional observations from a re-analysis of the deposited data

Results flagged for a closer look

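The chalazal effect differed between endosperm and seed coat by a test of the difference itself for 2 of the 6 genes. For LHW the change from the cellularized to the chalazal endosperm minus the change from the general to the chalazal seed coat was -6.97 on the log2 scale (SE 0.76, adjusted p = 9.34e-06, limma). For PHV it was -5.96 (SE 0.91, adjusted p = 0.000225, limma). The comparison was added after the values had been seen. With 2 arrays a group, no array was tested for standing apart from its group.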

How the results depend on the processing

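For the 6 genes, 24 alternatives gave 3890 values, of which 3722 kept the side of the threshold, 116 lost a call and 52 gained one. The sign turned in 73 values that were not called, and in 0 called changes. Some embryo pair calls of LHW and YAB5 ended, as given above. Against the mean of the other 5 compartments, YAB3 and LHW kept their embryo calls in 24 of 24, and YAB5 in the 21 that tested it. Those all keep both embryo arrays, without which YAB5 is not tested, so its stability to either was not measured. In the counts of genes called, a pseudocount of 1 gave 1 for the general seed coat (2 as reported) and 3 for the embryo proper against the chalazal endosperm (5). A pseudocount of 64 gave 0 for the micropylar endosperm (1) and 5 neighbouring pairs (3). The stricter filter, under which genes high in few arrays are not tested, gave 0 for the micropylar endosperm and 1 for the embryo proper against it (2). The general seed coat count was 1 without a filter and with whole seeds left out. The micropylar count was 0 with the chalazal endosperm left out. Leaving out each array gave 2 to 5 for the embryo proper (4), 0 to 1 for the micropylar endosperm, 1 to 2 for each seed coat part, and, for the embryo proper against single compartments, 1 to 2 (micropylar), 1 to 4 (cellularized) and 3 to 5 (chalazal endosperm). Part of these ranges comes from the filter: without either embryo array YAB5 was not tested and could not be counted. Other causes were not tested. The replicate block left the counts with a mean of compartments and for embryo pairs as they were (4 for the embryo proper), ended 1 call, of YAB5 between the micropylar endosperm and whole seeds (adjusted p = 0.0515), gave 4515 calls over all probe sets for the embryo proper, with 4537 without it. Over all probe sets, calls fell as low as 2312 of 4537 for the embryo proper, 1125 of 2878 for the micropylar endosperm, 1302 of 2637 for the cellularized endosperm, 2738 of 4182 for the chalazal seed coat, 1311 of 2560 for the general seed coat and 435 of 1553 for whole seeds. For embryo pairs they fell to 1205 of 2433 (micropylar) and 1185 of 2442 (cellularized endosperm), and to 2742 of 4385 for the general seed coat. Equal medians and quantile normalization gave JKD a call in the embryo proper against the chalazal seed coat (adjusted p = 0.0443 and 0.0368) and YAB5 one in the chalazal seed coat (0.0481 and 0.0447). Equal medians moved the median change of all probe sets by 0.26 for the cellularized endosperm, 0.23 for the chalazal endosperm, -0.12 and -0.22 for the chalazal and general seed coat, and -0.39 for whole seeds. The share of calls that were higher moved from 49.5% to 65.1% in the cellularized endosperm, from 40.7% to 50.8% in the chalazal endosperm and from 64.5% to 47.8% in the general seed coat. Low signals limit YAB3, YAB5, BBM and JKD, of which 7, 5, 2 and 2 arrays lay below 16.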
